A study of Mus musculus with 8 samples.

Results

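The genes followed here encode dystrophin (Dmd), its relative utrophin (Utrn), dystroglycan (Dag1), the alpha and beta sarcoglycans (Sgca and Sgcb), caveolin-3 (Cav3) and dysferlin (Dysf). They were chosen by gene symbol, and all 7 of 7 were measured, among 12393 genes in all. Each was read from the probe set with the highest mean over the 8 arrays, and the 7 genes had 15 probe sets between them. No filter on low values was used, so all 7 entered every test.

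The arrays measured total RNA of 6 primary soft tissue sarcomas and of 2 normal muscles, which came from hind limbs that bore no tumour. There were 4 sarcomas and 1 muscle from mice labelled Braf Ca/Ca and 2 sarcomas and 1 muscle from mice labelled Braf Ca/+, and every group, muscle included, carried p53 Fl/Fl. Tumours were started by injecting an adenovirus that expresses Cre, the recombinase that acts on floxed alleles, so the choice of cells rested on the virus and not on a cell type promoter. The sources used here do not give strain, age, sex or the number of animals. Since no label ties each array to a mouse of its own, the p-values rest on array-to-array spread that could in part be technical. All 8 samples carry the tissue label muscle.

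In a muscle fibre, dystrophin lies under the cell membrane and ties the actin cytoskeleton to dystroglycan, which spans the membrane and binds laminin in the basal lamina. The sarcoglycans brace dystroglycan, caveolin-3 is the muscle caveolin and binds dystroglycan, and dysferlin takes part in sealing torn membrane. Utrophin resembles dystrophin and can take its place in the complex, is made in many cell types, and in mature fibres is concentrated at nerve and tendon junctions. Loss of most of these proteins causes muscular dystrophy. The dystrophin gene has several start sites: a long form is made in muscle, and shorter forms from internal starts are made in many other cells.

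The windows of 250 bases just upstream of listed start sites are shown for the genes with the largest falls, Sgca and Cav3, for utrophin, and for both listed starts of dystrophin, whose second start lies 2099425 bases downstream of the first. Sequences are from RefSeq, build GRCm38.p6, read 5′ to 3′ on the gene's strand, and all 7 genes matched with 10 windows in total. Capitals mark matches to the E-box CANNTG (bound by myogenic factors among others), the CArG box (bound by serum response factor) or the MEF2 site.
Dmd, first start, chrX:82948620-82948869, plus strand: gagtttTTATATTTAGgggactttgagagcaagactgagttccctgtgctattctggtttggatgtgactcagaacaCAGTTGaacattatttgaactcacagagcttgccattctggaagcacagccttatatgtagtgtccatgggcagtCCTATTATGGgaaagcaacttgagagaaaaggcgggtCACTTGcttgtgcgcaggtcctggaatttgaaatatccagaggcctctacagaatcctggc
Dmd, second start, chrX:85048045-85048294, plus strand: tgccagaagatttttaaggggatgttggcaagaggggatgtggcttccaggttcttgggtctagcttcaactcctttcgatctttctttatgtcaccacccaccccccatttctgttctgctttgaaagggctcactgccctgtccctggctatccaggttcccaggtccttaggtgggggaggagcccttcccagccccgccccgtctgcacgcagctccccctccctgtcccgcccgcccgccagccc
Sgca, chr11:94976328-94976577, minus strand: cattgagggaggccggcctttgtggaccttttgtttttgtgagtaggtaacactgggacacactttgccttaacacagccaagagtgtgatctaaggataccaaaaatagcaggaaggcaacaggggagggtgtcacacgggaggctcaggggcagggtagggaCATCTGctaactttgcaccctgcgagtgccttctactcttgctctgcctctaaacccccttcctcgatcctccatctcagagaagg
Cav3, chr6:112459255-112459504, plus strand: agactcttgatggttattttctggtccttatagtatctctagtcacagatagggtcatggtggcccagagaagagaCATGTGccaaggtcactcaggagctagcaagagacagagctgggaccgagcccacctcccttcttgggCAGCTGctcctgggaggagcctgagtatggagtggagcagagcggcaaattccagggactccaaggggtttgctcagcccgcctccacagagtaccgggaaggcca
Utrn, chr10:12861736-12861985, minus strand: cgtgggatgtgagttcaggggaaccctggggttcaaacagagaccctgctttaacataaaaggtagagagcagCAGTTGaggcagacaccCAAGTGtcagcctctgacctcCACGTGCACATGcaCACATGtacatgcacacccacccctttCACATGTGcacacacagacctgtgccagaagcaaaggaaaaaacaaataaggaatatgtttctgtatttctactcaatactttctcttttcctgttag

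The first dystrophin window held 2 E-boxes, 1 CArG box and 1 MEF2 site, while the second held none of them. Among 32851 windows of this length, 1.47% held a CArG box and 2.92% a MEF2 site, and 66.2% held an E-box. E-boxes were found in 6 of the 10 windows, from 5 genes: Dmd, Utrn, Dag1, Sgca and Cav3. The utrophin window held 7, the last pair of which overlap. It lies inside the listed span of the gene (chr10:12382187-12869888), as do both dystrophin windows (chrX:82814664-85205050). The sequence at the upstream ends of these genes was therefore not searched. The MCAT element (CATTCC or its complement, in 12.6% of windows) and the N-box (CCGGAA or its complement, in 12% of windows) had no match in the 10 windows. All motifs were searched on both strands, and a match describes the letters and not a bound site.

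The comparison of sarcoma with muscle asked how the RNA levels of these genes differed between the tumours and normal muscle. Of the 7 genes, 6 fell and 1, Utrn, did not pass, by limma over all genes at an adjusted p under 0.05. Over all 12393 genes 13.2% were called lower and 26.3% in either direction. The 7 differences had a median of -1.65 on the log2 scale, against 0.03 over all genes. In each of the 6 that fell, all 6 sarcomas lay below both muscles, which held for 19.0% of all genes. In bulk tissue, fewer fibres, less RNA per fibre and RNA made by other cells cannot be told apart.

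**Figure D1:**
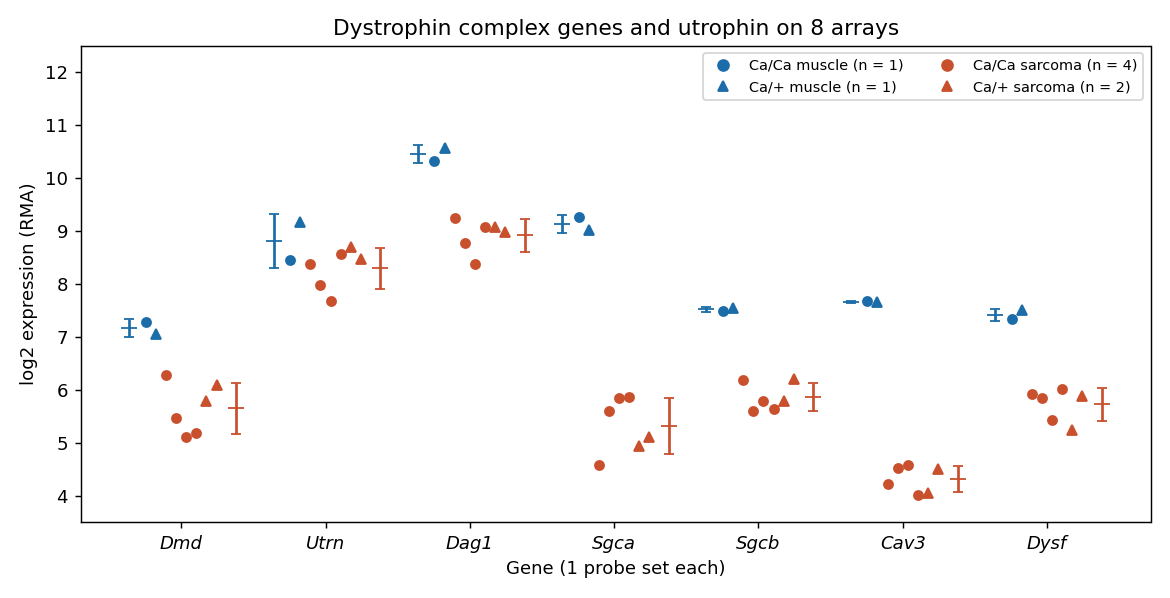
Points are log2 expression (RMA) of 7 genes on 8 arrays, blue for muscle and orange for sarcoma, circles for Ca/Ca and triangles for Ca/+; bars are mean ± SD (n = 2 muscles, n = 6 sarcomas). Sarcoma and muscle points are apart for every gene except Utrn, and the widest gaps are those of Sgca (9.14 against 5.32) and Cav3 (7.67 against 4.32).

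Dystrophin had muscle log2 levels of 7.29 (Ca/Ca) and 7.05 (Ca/+). In the Ca/Ca sarcomas 1, 2, 3 and 5 its levels were 6.28, 5.46, 5.11 and 5.19, and in Ca/+ sarcomas 1 and 2 they were 5.80 and 6.08. Every sarcoma was below both muscles, and Ca/Ca sarcomas 3 and 5 were the lowest. On the log2 scale Dmd fell by 1.52 with an SE of 0.32 (adjusted p = 0.0101 by limma), or 2.86-fold, from 7.17 ± 0.16 (SD, n = 2) to 5.65 ± 0.48 (SD, n = 6). With either muscle left out the size held but the call was lost, at -1.40 (adjusted p = 0.0704) without the Ca/Ca muscle and -1.63 (adjusted p = 0.0644) without the Ca/+ muscle.

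A second dystrophin probe set, 1448665_at, had 6.71 and 6.95 in the muscles and from 3.74 (Ca/Ca sarcoma 5) to 5.30 (Ca/Ca sarcoma 1) in the sarcomas, with a median of 4.45. It fell by 2.31 (SE 0.37, adjusted p = 0.00314 in a limma fit of all 20380 named probe sets, of which 12.2% were called lower). Both probe sets placed Ca/Ca sarcoma 1 highest among the sarcomas. The third, 1430320_at, lay between 1.55 and 1.87 on all 8 arrays, at the bottom of the scale, and gave no reading of the gene. The sources used here do not say which forms of dystrophin these probe sets detect.

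Utrophin, the relative made in many cell types, had muscle log2 levels of 8.46 (Ca/Ca) and 9.17 (Ca/+). The Ca/Ca sarcomas 1, 2, 3 and 5 had 8.38, 7.98, 7.68 and 8.58, and Ca/+ sarcomas 1 and 2 had 8.70 and 8.47. The groups overlapped: 3 of 6 sarcomas lay below both muscles and 3 lay between them. The difference of -0.51 (SE 0.30, adjusted p = 0.255 by limma) did not pass, and ranged from -0.16 without the Ca/+ muscle to -0.87 without the Ca/Ca muscle. After centring on 11 housekeeping genes it was -0.87 and passed (adjusted p = 0.0488).

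The other utrophin probe sets differed in sign. Probe set 1426892_at had 4.84 and 5.90 in the muscles and 4.62 to 6.21 in the sarcomas, with a difference of 0.12 (SE 0.43, adjusted p = 0.873 by limma). Probe set 1427569_a_at stayed between 4.44 and 4.80 on all arrays, with a difference of 0.12 (SE 0.13, adjusted p = 0.558 by limma). Those levels lie within the range of the genes of tissues not sampled, described below. No utrophin probe set passed in either direction, which does not show that its level was equal in the tissues.

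**Figure D2:**
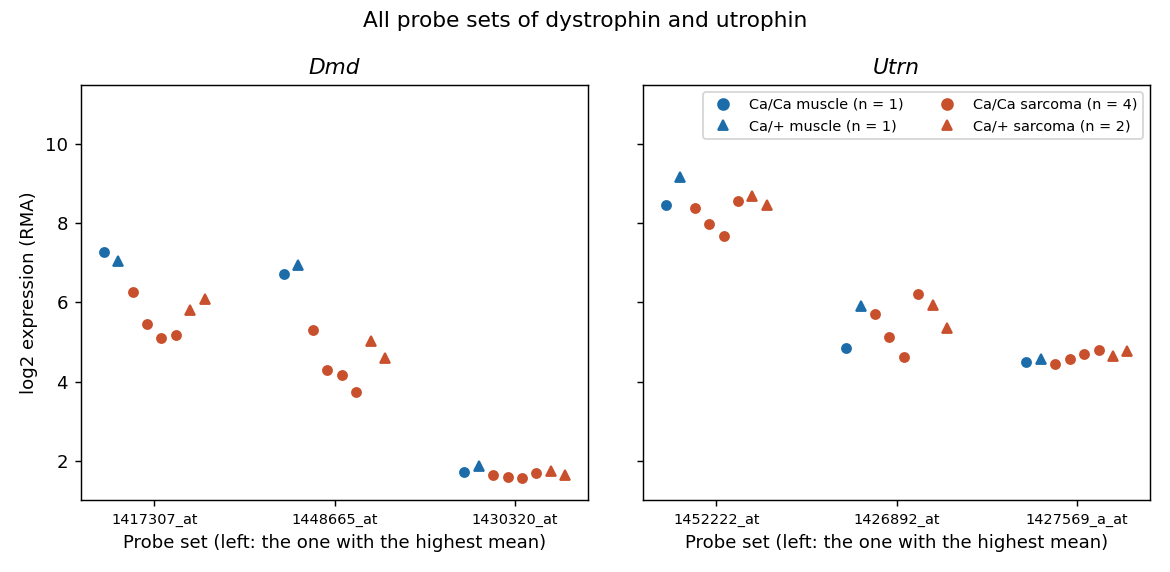
Points are log2 expression (RMA) of each of the 3 probe sets of Dmd and of Utrn on 8 arrays, with colours for tissue and symbols for genotype. The sarcomas lie below both muscles in the first and second Dmd probe sets (falls of 1.52 and 2.31), and sarcomas and muscles overlap in all Utrn probe sets.

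Dystroglycan, the membrane-spanning core of the complex, is made in many cell types. Its muscle log2 levels were 10.33 (Ca/Ca) and 10.57 (Ca/+), and in the sarcomas it ran from 8.37 (Ca/Ca sarcoma 3) through a median of 9.03 to 9.25 (Ca/Ca sarcoma 1). The groups were apart. Dag1 fell by 1.53 (SE 0.23, adjusted p = 0.00214 by limma), or 2.89-fold. Its 3 other probe sets fell by 1.33, by 1.60 and by 1.60, with adjusted p-values of at most 0.00256 by limma over all probe sets. Ca/Ca sarcoma 3 was the lowest array in all 4 probe sets.

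The sarcoglycans differed in the size of their fall. Sgca, whose protein is restricted to striated muscle, had muscle log2 levels of 9.26 (Ca/Ca) and 9.02 (Ca/+). In the sarcomas its levels ran from 4.58 (Ca/Ca sarcoma 1) through a median of 5.35 to 5.86 (Ca/Ca sarcoma 5). Even the highest sarcoma was far below both muscles. Sgca fell by 3.82 (SE 0.35, adjusted p = 0.000204 by limma), or 14.1-fold, and 0.976% of all genes had a difference at least as low.

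Sgcb, which is made in muscle and in other tissues, had 7.49 and 7.55 in the Ca/Ca and Ca/+ muscles. The sarcomas ran from 5.61 (Ca/Ca sarcoma 2) through a median of 5.79 to 6.21 (Ca/+ sarcoma 2). The groups were apart, and the sarcomas spanned 0.61 on the log2 scale. Sgcb fell by 1.65 (SE 0.20, adjusted p = 0.000753 by limma), or 3.15-fold. Its other probe set, 1419667_at, fell by 0.92 (SE 0.21, adjusted p = 0.0131 by limma over all probe sets).

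The membrane proteins caveolin-3 and dysferlin also fell. Cav3 had 7.68 and 7.65 in the Ca/Ca and Ca/+ muscles and 4.02 (Ca/Ca sarcoma 5) to 4.58 (Ca/Ca sarcoma 3) in the sarcomas, with a median of 4.37. It fell by 3.35 (SE 0.19, adjusted p = 1.68e-05 by limma), or 10.2-fold, the tightest difference of the 7. A set of 14 genes of tissues not sampled, such as those for protamines and egg coat proteins, had a median log2 level of 3.08 over the 8 arrays and a 90th percentile of 4.67. All 6 sarcoma levels of Cav3 lay below that percentile, as did the lowest of Sgca, so these falls may be larger than the arrays could show.

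Dysf had muscle levels of 7.34 (Ca/Ca) and 7.50 (Ca/+). The sarcomas ran from 5.24 (Ca/+ sarcoma 1) through a median of 5.87 to 6.02 (Ca/Ca sarcoma 5). Dysf fell by 1.69 (SE 0.22, adjusted p = 0.00123 by limma), or 3.23-fold, with all sarcomas below both muscles. Cav3 and Sgca thus formed the pair with the deepest falls, and the falls of Dmd, Dag1, Sgcb and Dysf lay between 1.52 and 1.69.

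Markers of several cell types were called, against 13.1% of all genes called higher and 13.2% lower. All 14 of 14 fibre markers fell, with list means (mean log2 level per array) of 12.71 to 12.79 in the muscles and 6.78 (Ca/+ sarcoma 1) to 9.08 (Ca/Ca sarcoma 2) in the sarcomas. Of 8 endothelial markers 6 fell, with list means of 8.05 ± 0.08 (SD, n = 2) against 5.75 to 6.80, and of 10 smooth muscle and pericyte markers 3 fell, with 7.87 to 7.94 against 5.91 to 7.42. All 9 satellite cell and myoblast markers were called lower, with list means of 5.16 to 5.26 against 3.60 to 4.06, but 5 of them (Pax7, Pax3, Myf5, Myh3 and Myh8) lay below 4.67 on all 8 arrays, within background, where Ins2 of the genes of tissues not sampled was also called lower. The 2 muscles also differed from each other: macrophage list means were 9.58 (Ca/Ca) and 8.20 (Ca/+), fibroblast means 10.90 and 9.95, and adipocyte means 9.88 and 11.62. Of these lists 2 of 8 macrophage markers rose (sarcoma means 9.10 to 10.37), 1 of 8 fibroblast markers rose (10.10 to 10.75) and 4 of 4 adipocyte markers fell (5.26 to 7.69), and 2 of 6 Schwann cell markers fell. The fibroblast count was near the share of all genes, and 7 of 8 fibroblast markers did not pass. The part of these cell types in the falls of the complex genes was not tested. Each gene was only set against the fibre markers on the same array.

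Set that way, no gene passed after adjustment. The sarcoma minus muscle difference of a gene's log2 level less the fibre mean was 3.98 for Utrn, 2.98 for Dmd, 2.96 for Dag1, 2.84 for Sgcb and 2.80 for Dysf, and for these 5 no sarcoma overlapped the muscles. Each had p = 0.0357 by an exact two-sided permutation test over 28 splits, the smallest that this design can give, and an adjusted p of 0.05 over the 7 genes, which equals the threshold and does not pass it. Sgca minus the fibre mean differed by 0.67 (p = 0.286, exact permutation test, adjusted p = 0.286) with overlap, and Cav3 by 1.14 (p = 0.107, exact permutation test, adjusted p = 0.125), although its 6 sarcomas also lay above both muscles. All sarcoma levels of Cav3 are near the background described above, so its value here, and that of Cav3 minus Cav1, is set in part by the floor of the arrays. In muscle, fibre markers reached 13.7 (Tnnc2, both muscles), near the highest value in the data, 13.87. Whether the top of the scale limits the fibre mean in muscle, and so all these differences, was not tested. In Ca/+ sarcoma 1, the array with the lowest fibre mean, Dag1 had 9.08 and Utrn 8.70, both among the higher sarcoma levels, while Dysf had its lowest level.

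**Figure D3:**
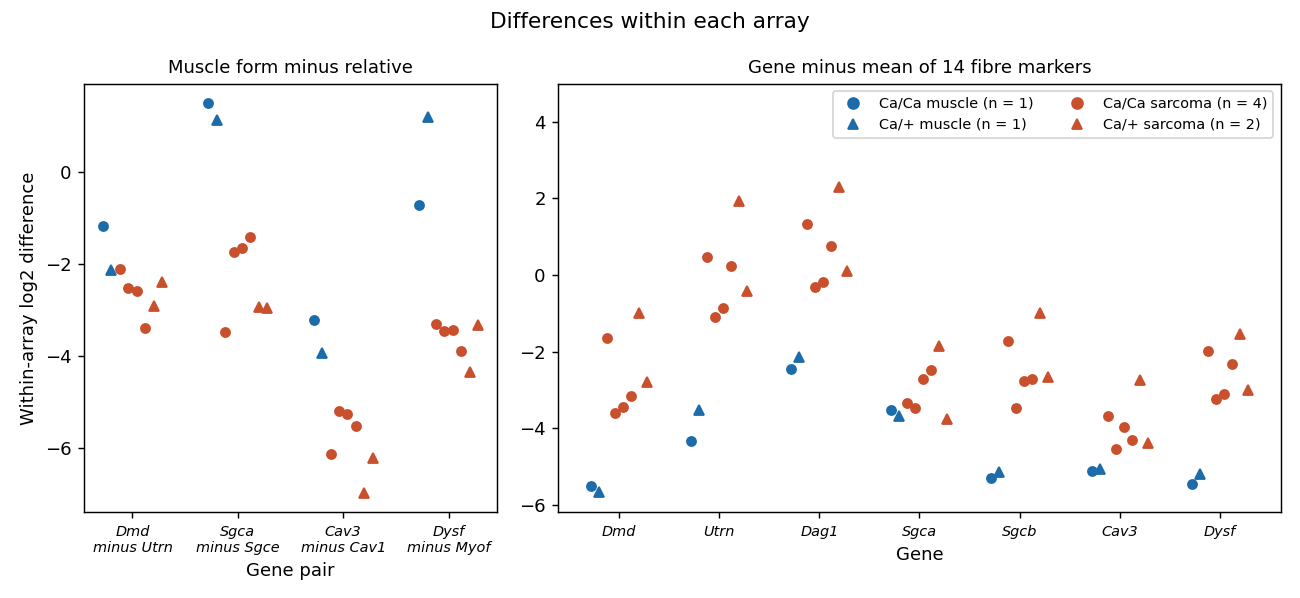
Points are log2 differences within each of 8 arrays, on the left between a muscle form and a relative, on the right between each gene and the mean of 14 fibre markers; colours show tissue and symbols genotype. On the right, sarcoma points of Utrn, Dmd, Dag1, Sgcb and Dysf lie above both muscles, while those of Sgca overlap them; on the left only Dmd minus Utrn brings a sarcoma to the level of a muscle.

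Several of these genes have a relative that is made in many cell types, and 4 such pairs were compared within arrays. By the exact permutation test p = 0.0357 is again the smallest that 28 splits can give. Whether it passes after adjustment depends on the number of comparisons, and over the 7 genes above it did not. Sgca minus Sgce, the epsilon sarcoglycan of many tissues, changed from 1.33 ± 0.26 (SD, n = 2) in muscle to -2.35 ± 0.87 (SD, n = 6) in sarcoma, an unequal change of -3.68 (p = 0.0357, exact permutation test, adjusted p = 0.0476 over 4 pairs). Sgce itself had 7.76 and 7.87 in the muscles and 7.26 to 8.05 in the sarcomas, so its groups overlapped (difference -0.14, SE 0.25, adjusted p = 0.726 by limma). Cav3 minus Cav1, the caveolin of fat, endothelium and fibroblasts, changed by -2.31 (p = 0.0357, exact permutation test, adjusted p = 0.0476). Cav1 had 10.90 and 11.58 in the muscles and 9.54 to 11.02 in the sarcomas, a difference of -1.04 (SE 0.41) that did not pass (adjusted p = 0.0985 by limma) and that passed under cyclic loess (-1.32, adjusted p = 0.0494) and housekeeping centring (-1.40, adjusted p = 0.0238).

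Dysf minus Myof changed by -3.87 (p = 0.0357, exact permutation test, adjusted p = 0.0476). Myof encodes myoferlin, a ferlin of myoblasts and of many other cells, and rose by 2.18 (SE 0.43, adjusted p = 0.00709 by limma), from muscle levels of 8.04 (Ca/Ca) and 6.30 (Ca/+) to 8.87 to 9.90 in the sarcomas. Without the Ca/+ muscle the rise of Myof was 1.31 and did not pass (adjusted p = 0.0578), and without the Ca/Ca muscle it was 3.05. With the mean of probe sets its rise was 1.07 (adjusted p = 0.0146 by limma). In these 3 pairs all 6 sarcomas lay below both muscles. Each pair lost its call in 7 of 9 alternatives, all of them omissions of 1 array. Where the array left out was a sarcoma, the adjusted p was 0.0635 by exact permutation tests. With fewer arrays there are fewer splits, which raises the smallest p that the test can give, so these losses do not measure the effect.

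Dmd minus Utrn in muscle was -1.17 (Ca/Ca) and -2.12 (Ca/+), and ran from -3.39 (Ca/Ca sarcoma 5) to -2.10 (Ca/Ca sarcoma 1) in the sarcomas. Ca/Ca sarcoma 1 thus reached the level of the Ca/+ muscle. The change of -1.002 did not pass (p = 0.0714, exact permutation test, adjusted p = 0.0714), so an unequal change of dystrophin and utrophin was not resolved with these probe sets. The mean of all probe sets takes in 1430320_at of Dmd and 1427569_a_at of Utrn, which lay in the background range. With that mean the change was -1.23 (adjusted p = 0.0357, exact permutation test), and without Ca/Ca sarcoma 1 it was -1.11 (adjusted p = 0.0476, exact permutation test). Without the Ca/+ muscle it was -1.48 and without the Ca/Ca muscle -0.53, and neither could pass with 1 muscle left.

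Among the other genes of the complex, 10 of 14 listed were measured. Sspn, which encodes sarcospan, the small membrane protein bound to the sarcoglycans, fell by 1.66 (SE 0.25, adjusted p = 0.00242 by limma), from 8.83 and 8.79 in the muscles to 6.66 to 7.74 in the sarcomas. The 9 others did not pass (0 rose), and the list median was -0.03. Over all genes 13.2% were called lower and 13.1% higher, so this list held no excess of calls. With the mean of probe sets 3 of the 10 fell, and under housekeeping or ribosomal protein centring 2 fell. The syntrophins and dystrobrevins, adaptors at the dystrophin tail, were among them, with differences of 0.58 for Sntb2, -0.24 for Sntb1, -0.46 for Dtna and 0.47 for Dtnb. Nos1, the nitric oxide synthase held at the complex, differed by -0.37 (adjusted p = 0.162 by limma). Sgcd, the delta sarcoglycan, had levels of 3.81 to 4.59 on all 8 arrays, within the range of the genes of tissues not sampled. Sntb1 (3.59 to 4.26), Nos1 (4.03 to 4.84), Sntg1 (3.30 to 5.05) and Sntg2 (2.73 to 3.09) also lay within that range on all 8 arrays. For the genes in that range the lack of a call does not show an unchanged level.

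The enzymes that build the laminin-binding sugar of dystroglycan showed calls in both directions. Of 10 measured of 16 listed, 2 rose and 2 fell, against 13.1% and 13.2% of all genes. Gmppb, which makes the mannose donor, rose by 0.94 (SE 0.16, adjusted p = 0.00397 by limma), and Dpm2, a subunit of dolichol-phosphate-mannose synthase, rose by 0.83. B3galnt2, which extends the sugar chain, fell by 1.08 (SE 0.14, adjusted p = 0.000995 by limma), and Dpm1 fell by 0.62. Gmppb and Dpm2 did not pass under housekeeping centring (adjusted p = 0.0516 and 0.0885), and Dpm1 and Dpm2 did not pass without the Ca/Ca muscle (-0.65 at adjusted p = 0.0745, and 0.76 at 0.0565) or without the Ca/+ muscle (-0.58 at 0.145, and 0.90 at 0.0514). With either muscle left out, 1 enzyme rose and 1 fell, and under housekeeping centring 0 rose and 5 fell.

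Of 12 genes for dystroglycan's ligands and their neighbours in the basal lamina, 1 rose and 2 fell, close to the 26.3% of all genes called in either direction. Lama2 and Lamb2, chains of the laminins of mature muscle, fell by 1.12 (SE 0.21, adjusted p = 0.00619 by limma) and by 1.30 (SE 0.22, adjusted p = 0.0035). Lamb1, a beta chain of the more widely made laminins, rose by 1.14 (SE 0.24, adjusted p = 0.0102 by limma), from 8.82 and 8.31 in the muscles to 9.18 to 10.09 in the sarcomas. Agrn, Hspg2, Lamc1 and the 6 others did not pass. Without the Ca/+ muscle none of the 12 passed, with Lama2 at -0.95 (adjusted p = 0.0821), Lamb2 at -1.15 (0.0514) and Lamb1 at 0.89 (0.129), and Lamb1 did not pass under ribosomal protein centring (0.90, adjusted p = 0.0622).

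Genes of membrane repair and caveolae were called in both directions. Of 15 measured of 16 listed, 6 rose, 2 fell and 7 did not pass, against 13.1% higher and 13.2% lower over all genes. Under housekeeping centring 5 rose and 5 fell. Those that fell were Capn3, the muscle calpain (by 4.80, SE 0.27, adjusted p = 1.67e-05 by limma), and Cavin4, the muscle cavin (by 3.30, SE 0.47, adjusted p = 0.00182). Capn3 had 8.07 and 8.12 in the muscles and 2.86 to 3.91 in the sarcomas, within the range of the genes of tissues not sampled. Besides Myof, the largest rises were those of the annexin gene Anxa5 (1.62, SE 0.22, adjusted p = 0.00152 by limma), of Cavin3 (1.24, SE 0.26) and of S100a10, a partner of annexin A2 (1.23, SE 0.20). Without the Ca/+ muscle 2 of the 15 rose, and Cavin3 did not pass (1.20, adjusted p = 0.0845), nor did it under ribosomal protein centring (0.99, adjusted p = 0.0536).

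Of 11 cytoskeletal partners measured of 14 listed, 1 rose, 4 fell and 6 did not pass, against 13.1% higher and 13.2% lower over all genes. Des, the muscle intermediate filament desmin, fell by 3.39 (SE 0.46, adjusted p = 0.00135 by limma), Itga7, the laminin-binding integrin chain of muscle, fell by 1.82 (SE 0.33), Flnc, a filamin that binds the sarcoglycans, fell by 1.81 (SE 0.41), and Sync, a desmin-binding protein, fell by 0.61 (SE 0.15). With the mean of probe sets the values were -2.18 for Des and -1.59 for Sync, and the sarcoma levels of the Sync probe set used lay below 4.67. Itgb1, the beta chain of many integrins, rose by 0.77 (SE 0.24, adjusted p = 0.0446 by limma). Without the Ca/+ muscle, 1 of the 11 fell, and Itga7 (-1.44, adjusted p = 0.0701), Flnc (-1.18, 0.163) and Sync (-0.47, 0.198) did not pass. The call of Itgb1 was lost in 14 of 20 alternatives, among them the omission of any array but Ca/Ca sarcoma 3, and without the Ca/+ muscle the rise was 0.53 (adjusted p = 0.356). Its adjusted p in those 14 ran from 0.0532 to 0.422.

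**Figure D4:**
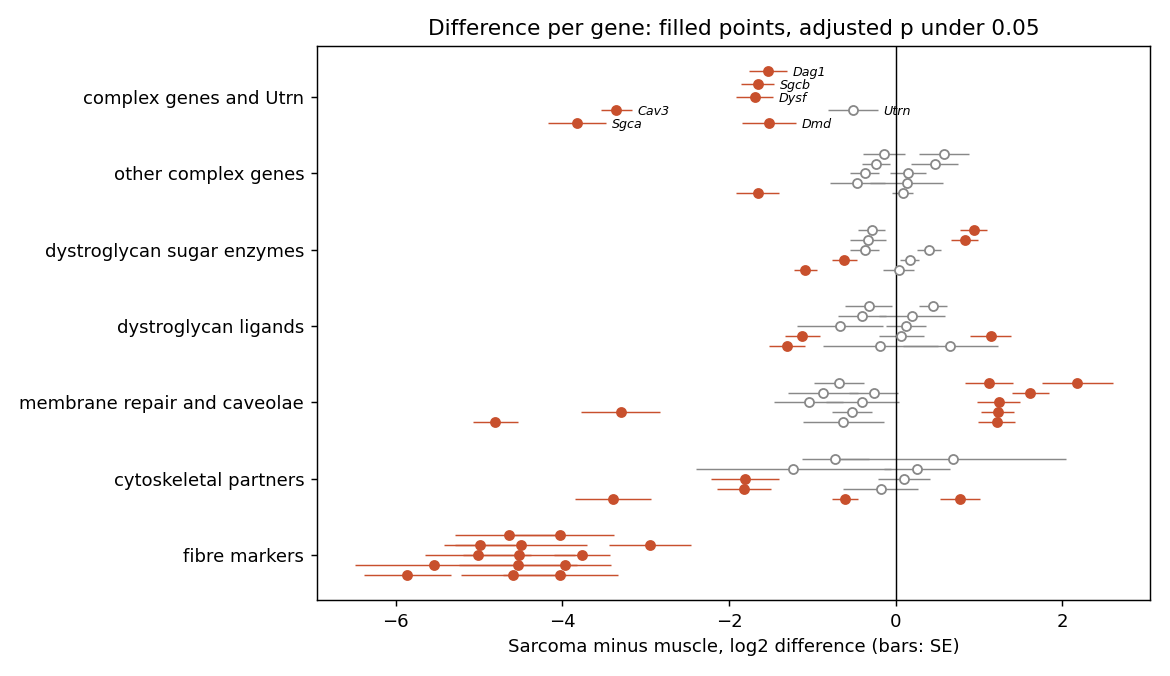
Each point is the sarcoma minus muscle log2 difference of 1 gene with its SE, grouped by gene list, filled where the adjusted p is under 0.05. The 7 genes, Utrn included, lie between -3.82 and -0.51, the 14 fibre markers all lie at -2.94 or lower, and the lists of other complex genes, sugar enzymes, ligands, repair genes and partners have points on both sides of 0.

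The genes whose profiles over the 8 arrays were closest to that of Dmd, by the root mean square distance of gene-centred log2 values, were Slc44a2 (0.19), Tpi1 (0.21), Il6st (0.21), 2310022A10Rik (0.25) and Sgcb (0.25). The median distance to Dmd over all genes was 0.83. For Utrn they were Akap9 (0.11), Sptbn1 (0.12), Dst (0.14), Ehd2 (0.15) and Lama4 (0.18), against a median of 0.52. Of the 7 genes, Dag1 was the nearest to Utrn (0.48) and Sgca the farthest (1.58). Ehd2 and Lama4 are on the lists above and did not pass in sarcoma against muscle (-0.53 and -0.40). Differences near that of Utrn follow from how these genes were chosen and are no separate result.

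Braf genotype was compared within the sarcomas, 4 Ca/Ca against 2 Ca/+. None of the 7 genes passed, and 0 of 12393 genes passed by limma (971 had an unadjusted p under 0.05), so the share called was 0.0%. Dmd had 5.51 ± 0.53 (SD, n = 4) in Ca/Ca and 5.94 ± 0.20 (SD, n = 2) in Ca/+ sarcomas, a difference of -0.43 (SE 0.35, adjusted p = 0.75 by limma). Utrn had 8.16 ± 0.40 and 8.59 ± 0.16 (SD), also -0.43 (SE 0.27, adjusted p = 0.705 by limma). Sgca was higher in Ca/Ca by 0.45 (SE 0.38, adjusted p = 0.768 by limma), and Dysf by 0.25 (SE 0.25). Dag1, Sgcb and Cav3 differed by -0.17, -0.19 and 0.07, each less than its SE. With 2 Ca/+ sarcomas the SEs were 0.22 to 0.38, which leaves differences of this size unresolved.

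The muscles, 1 per genotype, were compared as values only. Utrn was 0.72 lower in the Ca/Ca muscle, and no other of the 7 genes differed between the muscles by more than 0.24. Whether the sarcoma minus muscle difference itself depended on genotype was tested as an interaction, with the spread of the lone muscles assumed equal to that of the sarcomas. The Y chromosome gene Eif2s3y had an interaction of 5.52, and the sex of the mice is not given. A difference in sex between the arrays was not tested and cannot be told apart from genotype here. None of the 7 passed, with interactions of -0.67 (SE 0.66) for Dmd, 0.29 (SE 0.52) for Utrn and 0.42 (SE 0.47) for Dysf, and adjusted p-values of at least 0.919 by limma. The share of all genes called was 0.00807%, a single gene, Eif2s3y on the Y chromosome, named after its value was seen.

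Among the sarcomas, the order of the arrays differed from gene to gene. Ca/Ca sarcoma 3 had the lowest Dmd, Utrn and Dag1, and Ca/+ sarcoma 1 had the highest Utrn. Ca/Ca sarcoma 1 had the highest Dmd and Dag1 and the lowest Sgca. Ca/Ca sarcoma 5 had the highest Sgca and Dysf. The sarcoma range was widest for Sgca (1.29) and Dmd (1.17) and narrowest for Sgcb (0.61), leaving out Cav3, whose sarcoma levels near background have no order.

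Facts of the whole series bear on these values. Sarcoma against muscle called 1626 genes higher and 1630 lower, a split that became 741 and 3227 under housekeeping centring, 688 and 2405 under ribosomal protein centring and 1157 and 1830 under cyclic loess. The median of all genes moved from 0.03 to -0.33 and -0.22 under the first and second of these. Without the Ca/+ muscle 372 genes were higher and 823 lower, and without the Ca/Ca muscle 1040 and 1288. Under all of these settings Sgca, Cav3, Sgcb, Dysf and Dag1 stayed called lower.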

How the data were processed

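Expression was measured on 8 single-colour Affymetrix arrays. The deposited values are log2 expression per probe set, made by the authors with RMA per the submitters' processing notes (version not stated), which corrects background, gives arrays a common distribution and summarises probes. The sources used here do not say if all arrays were run through it at once. Of 22690 probe sets, 64 were controls, the platform annotation gave 1 symbol for 20380, several for 691, and did not list 1555. The probe set of highest mean per gene gave 12393 genes. Any pair of arrays shared at most 32 equal values. The number of arrays limits the precision.

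Groups came from the sample titles. Tests used limma 3.58.1 in R 4.3.3 (lmFit and eBayes, Benjamini-Hochberg over all genes, threshold 0.05), checked on simulated data. Each adjusted p by limma is from the main fit of its comparison, unless another probe set or setting is named, which had a fit of its own. Within-array differences used exact two-sided permutation tests over 28 splits. The genes and lists were chosen with earlier results of these data known. Named genes were the 7 members, up to 4 called genes with the largest rises and falls of each list, 3 relatives (Sgce, Cav1, Myof) and the 5 genes closest to Dmd and to Utrn. Other genes named without a call, and Eif2s3y, which was called in the interaction, were chosen after their values were seen. Alternatives changed the scaling, the probe set, the filter on dim genes, the weights, the prior and the arrays used. Tumour numbers 1 and 2 occur in both genotypes, but no label says that they pair arrays, so the numbers were not taken as pairs. Deviations of same-numbered tumours from their group means correlated at -0.189 and 0.293 over genes. With 2 Ca/+ sarcomas their deviations mirror each other, so these values cannot decide on pairing.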

Additional observations from a re-analysis of the deposited data

How the results depend on the processing

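Sgca and Cav3 kept their call in all 19 alternatives that could be fitted, apart from other probe sets, at -4.18 to -3.67 and -3.71 to -3.29, and Utrn kept its sign in 20, at -0.87 to -0.09. Dmd lost its call in 4 of 19: with Ca/Ca arrays only (-1.78), with Ca/+ arrays only (-1.11) and without either muscle, with a range of -1.64 to -1.40 when 1 array was left out. Dag1 lost it with Ca/Ca arrays only (-1.46), and Sgcb (-1.55) and Dysf (-1.94) with Ca/+ arrays only, where 3 of the 7 genes were called. Without the dimmest 50% of genes only Utrn and Dag1 were left to test, and 1 was called. Utrn passed under housekeeping centring (-0.87), its other probe sets turned sign (0.12 and 0.12), Dmd probe set 1430320_at did not pass (-0.15), and Sgce turned to 0.090 with Ca/+ arrays only.

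Over all genes, 741 were higher and 3227 lower under housekeeping centring, 688 higher under ribosomal protein centring, 2770 higher and 2490 lower over all probe sets, 884 lower without the dimmest 50%, 91 and 510 with Ca/Ca arrays only, and 592 and 695 with Ca/+ arrays only. Leaving out 1 array gave 372 to 1772 higher and 823 to 1679 lower. It gave 5 to 6 called members.

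Of the pairs, Dmd minus Utrn passed with the mean of probe sets (-1.23), which takes in probe sets in the background range. It ranged from -1.48 to -0.53 when 1 array was left out. In the same way Sgca minus Sgce ranged from -3.87 to -3.46, Cav3 minus Cav1 from -2.66 to -1.95 and Dysf minus Myof from -4.83 to -2.92, and with fewer arrays the permutation test often cannot pass.

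Between genotypes, small differences turned sign: Dag1 to 0.0052 and Cav3 to -0.049 under housekeeping and ribosomal protein centring, and Dag1 to 0.052 with probe set 1426779_x_at. Leaving out 1 array gave -0.29 to 0.00087 for Dag1, -0.16 to 0.29 for Cav3, -0.073 to 0.57 for Dysf, -0.41 to 0.023 for Sgcb, and 0 to 1 genes lower. With the tumour number as a replicate block, 0 genes passed and Dmd differed by -0.073 (adjusted p = 0.958 by limma), Utrn by -0.41 and Sgca by 0.064, and no call changed.

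For the interaction, Cav3 turned to -0.076 under cyclic loess and -0.15 under ribosomal protein centring, Sgcb to 0.16 under housekeeping centring, and Dag1 to -0.11 under ribosomal protein centring and -0.10 with the mean of probe sets. By other probe sets Dmd turned to 0.082, Utrn to -0.027 and Dag1 to -0.23 and -0.26. Leaving out 1 array gave -0.19 to 0.27 for Cav3, -0.051 to 0.24 for Dag1, -0.35 to 0.083 for Sgcb, and 0 to 1 genes higher. The filters on dim genes left 0 genes higher, array weights called 8 higher and 5 lower, and the trended robust prior 11 and 6. Without a muscle the interaction could not be fitted. The cause of these changes was not tested, beyond the smaller sets of arrays and genes.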
